A study of Mus musculus with 12 samples.

Results

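The Hedgehog genes examined comprised 3 ligands (Shh, Ihh and Dhh), 3 receptors (Ptch1, Smo and Hhip) and 3 transcription factors (Gli1, Gli2 and Gli3). They were taken by name and placed by their RefSeq coordinates on mm10 (GRCm38), which makes 9 of 21631 protein-coding genes on chromosomes 1 to 19 and X. The trimethylation of histone H3 at lysine 27 (H3K27me3), a repressive mark written by Polycomb complexes, had been mapped by CUT&RUN, in which an antibody guides a nuclease to the chromatin that carries the mark. The material was cell suspensions of epidermis from female mice. Both groups carried floxed Utx alleles (Utx fl/fl). The group called WT was Cre-, and the group called Utx-cKO was Cre+ with Krt14-Cre, which removes Utx (Kdm6a), an X-linked H3K27 demethylase, in tissues that express keratin 14. Cells of the suspension that never expressed keratin 14 keep Utx. The age of the animals is not given in the sources used here. Each genotype had 3 animals, and each animal gave an H3K27me3 and an IgG library, 12 libraries in all. The 2 deposited peak lists each pool the animals of a genotype, so every value below is a single value per genotype, with no replicate error and no test.

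Hedgehog ligands are secreted proteins that bind Ptch1, which otherwise holds the membrane protein Smo inactive. Freed Smo lets Gli factors switch on target genes, with Gli2 acting chiefly as an activator, Gli3 chiefly as a repressor, and Gli1 as both activator and target. Hhip binds the ligands without passing on a signal and so dampens the pathway. In skin, Shh from the hair follicle drives follicle growth, and activation of the pathway in keratinocytes is the known route to basal cell carcinoma.

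A gene was counted as marked when a peak overlapped its body or the flanking 2 kb by at least 1 bp. The WT list held 7826 peaks and the Utx-cKO list 8914, with depth and signal scale unknown. The same rule was applied to markers of cell types. It found 0 of 5 keratinocyte genes (Krt5, Krt14, Trp63, Krt1 and Krt10) marked in either list. It found 4 of 4 fibroblast, 3 of 3 immune, 1 of 4 melanocyte and 0 of 2 endothelial genes marked in both lists. Of all autosomal protein-coding genes, 14.6% were marked in both. The share of a marked marker gene plus 2 kb that peaks covered varied widely. It ran from 15.7% (WT) and 9.02% (Utx-cKO) at Col1a1 to 96.6% and 100% at Cd3e. In a suspension of mixed cells, a mark carried by few cells and a weak mark in every cell cannot be told apart.

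The ligand genes had an H3K27me3 peak in both lists, while most of the receptor and Gli genes had none. This difference was not tested. With depth and threshold unknown, a missing peak does not show that the mark is absent. All 3 ligands had a peak in either list. Of the receptors, Hhip was marked in both lists, and Ptch1 and Smo in neither. Of the Gli factors, Gli2 was marked in both lists, and Gli1 and Gli3 in neither. That made 5 of 9 genes in each list, the same 5 in both. The WT list marked 18.0% of all protein-coding genes, the Utx-cKO list 19.5%, and both lists 16.4%. All 9 Hedgehog genes are autosomal, and among autosomal protein-coding genes the shares were 16.1% in WT, 17.6% in Utx-cKO and 14.6% in both. No Hedgehog gene was marked in a single list, against 1.49% of autosomal genes in WT alone and 3.0% in Utx-cKO alone.

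Long genes have more room for a peak, so the counts were also read by gene length. Of autosomal genes under 10 kb, the WT list marked 10.9% and the Utx-cKO list 12.3%, and Ihh (6.36 kb) falls in that class. Between 10 and 30 kb the shares were 12.7% and 14.2%, and 2 of 4 members were marked, Shh and Dhh but not Smo and Gli1. Between 30 and 100 kb they were 18.8% and 20.1%, with Hhip marked and Ptch1 not. At 100 kb and longer they were 35.8% and 38.0%, with Gli2 (220 kb) marked and Gli3 (266 kb), the longest of the 9, not.

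**Figure D1:**
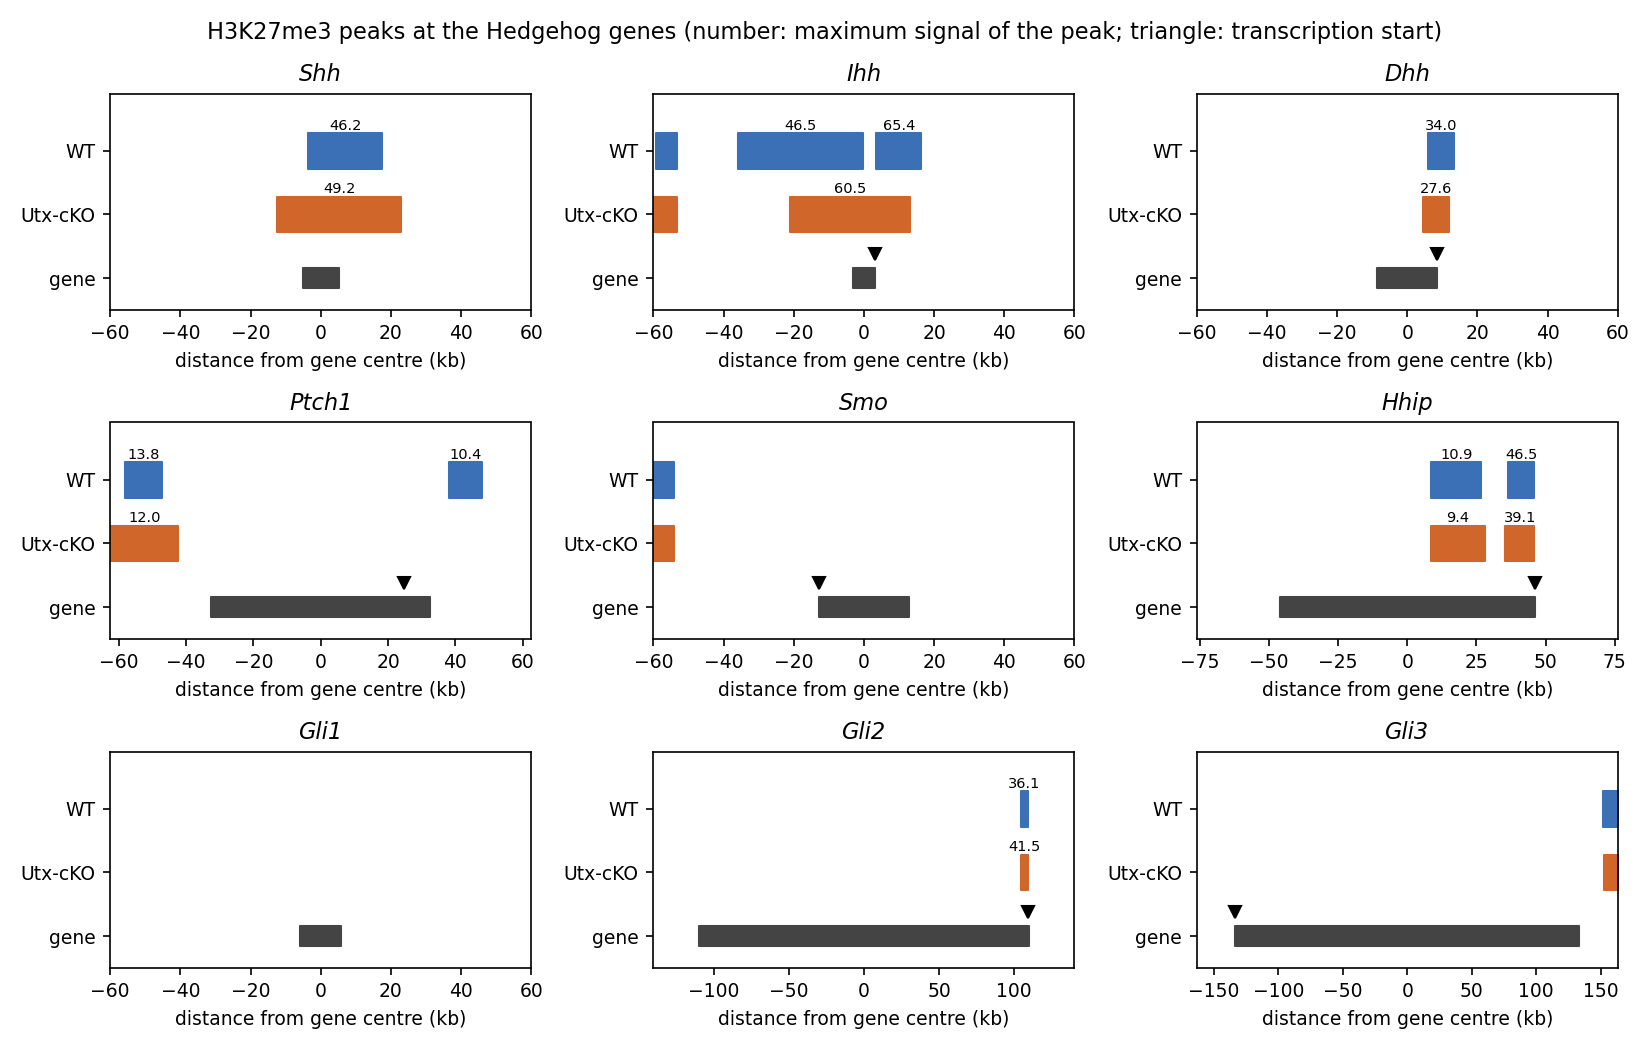
H3K27me3 peaks of the WT list (blue) and the Utx-cKO list (orange) around each Hedgehog gene (grey bar), against the distance from the centre of the gene body in kb, with coordinates rising to the right and a range that differs between panels. Triangles mark transcription starts where RefSeq's table gave one, and numbers are the maximum signal of a peak in its own list (peaks near the frame carry none). Peaks lie on Shh, Ihh, Dhh, Hhip and Gli2, and none on Ptch1, Smo, Gli1 and Gli3.

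The ligand genes differed among themselves in how far peaks covered them. Shh, the ligand of hair follicles, limb and neural tube, lies on chromosome 5 at 28456840 to 28467101. A single WT peak (chr5:28458351-28479550) was 21200 bp wide and covered 75.4% of the gene body plus 2 kb. A single Utx-cKO peak (chr5:28449601-28484950) was 35350 bp wide and covered 100% of it. The WT peak lay wholly inside the Utx-cKO peak, which began 7239 bp below the gene's lower border and ended 17849 bp above its upper border. By total signal, the authors' own score of a peak, the WT peak had 240493 and stood at percentile 89.2 of its list. The Utx-cKO peak had 308022 and stood at percentile 93.7. The maximum signal was 46.2 in WT and 49.2 in Utx-cKO, each within its own list's scale, and both maxima began at the same position, 28460251. The place of the maximum ran to 28466150 in WT, which may join separate places of equal height, and to 28460300 in Utx-cKO.

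Shh is known for distant enhancers, among them the limb enhancer inside an intron of Lmbr1 (chromosome 5, 29229802 to 29378421), a gene whose near border is 763 kb from Shh. No peak of either list lay in Lmbr1. Between the domain on Shh and Lmbr1, the WT list held 2 peaks and the Utx-cKO list 1. The peak present in both lay 557 kb (WT) and 562 kb (Utx-cKO) above Shh. The second WT peak (chr5:28931851-28951900) stood at percentile 15.7 by total signal. On the other side of Shh, the nearest peak ended 146 kb below the gene in both lists.

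Ihh, the ligand best known from growing cartilage and bone, had a gap in the WT list where the Utx-cKO list had none. It lies on chromosome 1 at 74945315 to 74951672, with its transcription start at 74951672. Its 2 WT peaks were chr1:74912651-74948150, 35500 bp wide, and chr1:74952001-74964800, 12800 bp wide. Between them, 3850 bp without a WT peak contained the transcription start, 0.329 kb from the second peak. In Utx-cKO, a single peak of 34050 bp (chr1:74927451-74961500) ran across the gap. Coverage of the gene body plus 2 kb was 62.8% in WT and 100% in Utx-cKO. By total signal, the WT peaks stood at percentiles 90.2 and 84.6 and the Utx-cKO peak at 97.0. The WT maxima were 46.5, lying 3947 bp downstream of the start, and 65.4, lying 1653 bp upstream of it. The Utx-cKO maximum was 60.5, reported by the peak caller from 74949501 to 74952400, a stretch that includes the start and that may join separate places of equal height. Both outer ends of the marked region were farther out in WT: the first WT peak began below the Utx-cKO peak, and the second ended above it. The first WT peak and the Utx-cKO peak both overlapped Cfap65, a cilia gene, or its flanking 2 kb.

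The pattern at Ihh was found in both directions, each at a small share of all genes with a given start. A transcription start between 2 WT peaks that a single Utx-cKO peak spans occurred at 32 of 16457 autosomal protein-coding genes with a start in RefSeq's table (0.194%). The reverse, a start between 2 Utx-cKO peaks spanned by a WT peak, occurred at 42 (0.255%). This comparison was added after the Ihh peaks had been seen.

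Dhh, the ligand of the testis and of the sheath of peripheral nerves, carried a short peak over its start. The gene lies on chromosome 15 at 98881615 to 98898562, with the start at 98898540. The WT peak (chr15:98896101-98903450) was 7350 bp wide and the Utx-cKO peak (chr15:98894451-98901900) 7450 bp. They covered 21.3% and 29.2% of the gene body plus 2 kb. The WT peak reached 4910 bp upstream and 2439 bp downstream of the start. The Utx-cKO peak reached 3360 bp upstream and 4089 bp downstream, so the peak of similar width lay further into the gene. Both maxima were in the same 50 bp, 98897401 to 98897450, with a signal of 34.0 in WT and 27.6 in Utx-cKO. A shared place of the maximum was found for 10.7% of autosomal WT peaks. By total signal, which grows with width, the peaks stood at percentiles 32.1 and 50.1, the lowest of the ligand peaks in each list. By mean signal (total divided by width) Dhh was not the lowest. It stood at 83.1 in WT, where the wider Ihh peak stood at 80.7, and at 89.2 in Utx-cKO, where Shh stood at 88.9. The lists differ in length and lowest total signal, so their percentiles are not like for like. In WT the peak also came within 2 kb of Lmbr1l, the gene next to Dhh.

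The promoters of Ihh and Dhh are printed because the peaks treated these starts differently: the Ihh window lay in the WT gap and inside the Utx-cKO peak, and the Dhh window inside both peaks. Sequences are RefSeq's, GRCm38.p6, 5′ to 3′ on the coding strand, from 250 bp before to 50 bp after the start. Capitals mark CpG dinucleotides, since CpG-rich promoters are known as common sites of Polycomb marking. The Ihh window is chr1:74951623-74951922, minus strand, and the Dhh window chr15:98898491-98898790, minus strand.
Ihh: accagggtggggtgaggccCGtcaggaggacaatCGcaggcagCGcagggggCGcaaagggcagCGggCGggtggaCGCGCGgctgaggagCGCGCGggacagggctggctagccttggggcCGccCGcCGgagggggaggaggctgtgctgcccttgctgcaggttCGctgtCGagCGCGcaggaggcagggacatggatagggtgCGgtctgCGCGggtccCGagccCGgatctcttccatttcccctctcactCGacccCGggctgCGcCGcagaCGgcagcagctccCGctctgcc
Dhh: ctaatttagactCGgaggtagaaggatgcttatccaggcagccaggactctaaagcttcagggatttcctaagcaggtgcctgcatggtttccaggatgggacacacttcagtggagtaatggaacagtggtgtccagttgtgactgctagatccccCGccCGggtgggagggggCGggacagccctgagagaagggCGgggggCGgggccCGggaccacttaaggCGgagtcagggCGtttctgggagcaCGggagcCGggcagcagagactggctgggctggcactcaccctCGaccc

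Among the receptor genes, Hhip alone was marked, by a pair of peaks in each list. Hhip lies on chromosome 8 at 79965850 to 80058060, with its start at 80058008. The peak next to the start was chr8:80048401-80057950 in WT, 9550 bp wide, and chr8:80047351-80057950 in Utx-cKO, 10600 bp wide. Both ended at the same position, 58 bp inside the start, so the start lay outside the peak in either list. A Utx-cKO peak with the same end was found for 8.75% of autosomal WT peaks. The maximum signal was 46.5 in WT, 3233 bp downstream of the start, and 39.1 in Utx-cKO, 1883 bp downstream. The peaks stood at percentiles 77.1 and 78.6 by total signal.

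The second Hhip peak lay deeper in the gene and was much flatter. It was chr8:80020651-80038800 in WT, with a maximum of 10.9, and chr8:80020501-80039900 in Utx-cKO, with a maximum of 9.37. Mean signal, the total divided by the width, placed it at percentile 14.8 (WT) and 18.1 (Utx-cKO). The peak next to the start stood at percentiles 97.3 and 96.1 on the same measure. Together the peaks covered 28.8% of the gene body plus 2 kb in WT and 31.2% in Utx-cKO.

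Ptch1, the ligand receptor and a direct Gli target, had no peak within its body or 2 kb in either list. It lies on chromosome 13 at 63508328 to 63573460. It came closest to being counted: the nearest WT peak (chr13:63579101-63588750) began 5.64 kb above the gene and stood at percentile 1.12 by total signal. The nearest Utx-cKO peak (chr13:63477201-63498500) ended 9.83 kb below the gene, at percentile 38.4. These are different peaks on opposite sides of Ptch1. Smo, the signal transducer (chromosome 6, 29735497 to 29761366), was 41.3 kb from the nearest peak in both lists.

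Gli2 carried the narrowest of the peaks at Hedgehog genes, with the same borders in both genotypes. The gene lies on chromosome 1 at 118834061 to 119054405, with the start at 119053619. The peak ran from 119048501 to 119053400 (4900 bp) in WT and in Utx-cKO, and its maximum lay in the same 50 bp, 1494 bp downstream of the start. Identical borders were found for 44 of 6126 autosomal WT peaks (0.718%). Of autosomal peaks, 1.31% in WT and 1.39% in Utx-cKO were this narrow or narrower. The peak covered 2.18% of the gene body plus 2 kb in each list. It began 219 bp inside the start, so that, as at Hhip, the marked stretch lay downstream of the start. Its maximum signal was 36.1 (percentile 83.8) in WT and 41.5 (percentile 89.2) in Utx-cKO, and its total signal stood at percentiles 32.9 and 49.0.

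Gli1 (chromosome 10, 127329882 to 127341579), whose transcription is the usual readout of pathway activity, was 73.9 kb from the nearest peak in WT and 85.1 kb in Utx-cKO. Both nearest peaks lay at Kif5a, a neuronal kinesin gene. Gli3 (chromosome 13, 15463723 to 15730026) had no peak over its 266 kb, and the nearest peaks began 18.7 kb (WT) and 19.3 kb (Utx-cKO) above it. The Gli genes thus differed from each other in marking in the same way in both lists.

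The transcription start itself was inside a peak at fewer of the marked genes. Starts were given for 7 of the 9 genes, of which 4 were marked. In WT, Dhh had its start in a peak and Ihh, Hhip and Gli2 did not. In Utx-cKO, Dhh and Ihh did and Hhip and Gli2 did not. Of marked autosomal genes with a given start, 54.8% had one inside a peak in WT and 53.1% in Utx-cKO. The windows of Hhip (chr8:80057959-80058258, minus strand) and Gli2 (chr1:119053570-119053869, minus strand) lay just outside their peaks in both lists. They are printed with the unmarked Ptch1 (chr13:63565686-63565985, minus strand), which has the most CpG dinucleotides of the 7, in the same way as above. The Ptch1 start used, 63565735, lies inside the gene body, whose upper border is 63573460, so its window is not at the gene's border.
Hhip: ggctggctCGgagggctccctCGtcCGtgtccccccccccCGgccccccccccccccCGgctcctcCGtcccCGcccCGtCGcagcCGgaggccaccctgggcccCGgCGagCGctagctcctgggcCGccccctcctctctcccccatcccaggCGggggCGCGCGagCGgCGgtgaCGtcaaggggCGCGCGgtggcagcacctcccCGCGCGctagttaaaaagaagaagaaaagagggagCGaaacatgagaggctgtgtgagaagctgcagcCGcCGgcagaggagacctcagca
Gli2: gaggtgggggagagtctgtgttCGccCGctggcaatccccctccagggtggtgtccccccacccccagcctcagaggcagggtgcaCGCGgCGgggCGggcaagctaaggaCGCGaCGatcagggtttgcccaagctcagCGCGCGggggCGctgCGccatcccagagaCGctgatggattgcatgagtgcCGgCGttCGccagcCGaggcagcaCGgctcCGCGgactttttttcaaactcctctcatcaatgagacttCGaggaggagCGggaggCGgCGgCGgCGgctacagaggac
Ptch1: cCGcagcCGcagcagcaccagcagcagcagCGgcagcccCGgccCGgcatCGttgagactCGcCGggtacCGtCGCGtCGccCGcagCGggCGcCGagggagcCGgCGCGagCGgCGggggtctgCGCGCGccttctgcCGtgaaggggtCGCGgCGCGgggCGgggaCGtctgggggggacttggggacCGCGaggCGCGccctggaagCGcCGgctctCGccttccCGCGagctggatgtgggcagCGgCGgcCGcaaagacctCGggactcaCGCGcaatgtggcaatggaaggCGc

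CpG number did not separate marked from unmarked Hedgehog genes. The windows held 30 CpG dinucleotides at Ihh, 30 at Hhip, 28 at Gli2 and 12 at Dhh, all marked. They held 47 at Ptch1 (at a start inside the gene body), 39 at Gli3 and 17 at Smo, all unmarked. The median of 21045 promoters of protein-coding genes was 13 (interquartile range 4 to 25). Of autosomal genes whose richest promoter had 30 or more, 16.0% (WT) and 17.8% (Utx-cKO) were marked, of those with 10 to 14, 20.5% and 21.6%, and of those with 0 to 4, 9.80% and 11.02%, so the share followed no single direction with CpG number. The Gli motif GACCACCCA was searched on both strands. It was in none of the 7 windows and in 38 of the 21045 promoters (0.181%), which says only that these letters are absent from these windows.

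**Figure D2:**
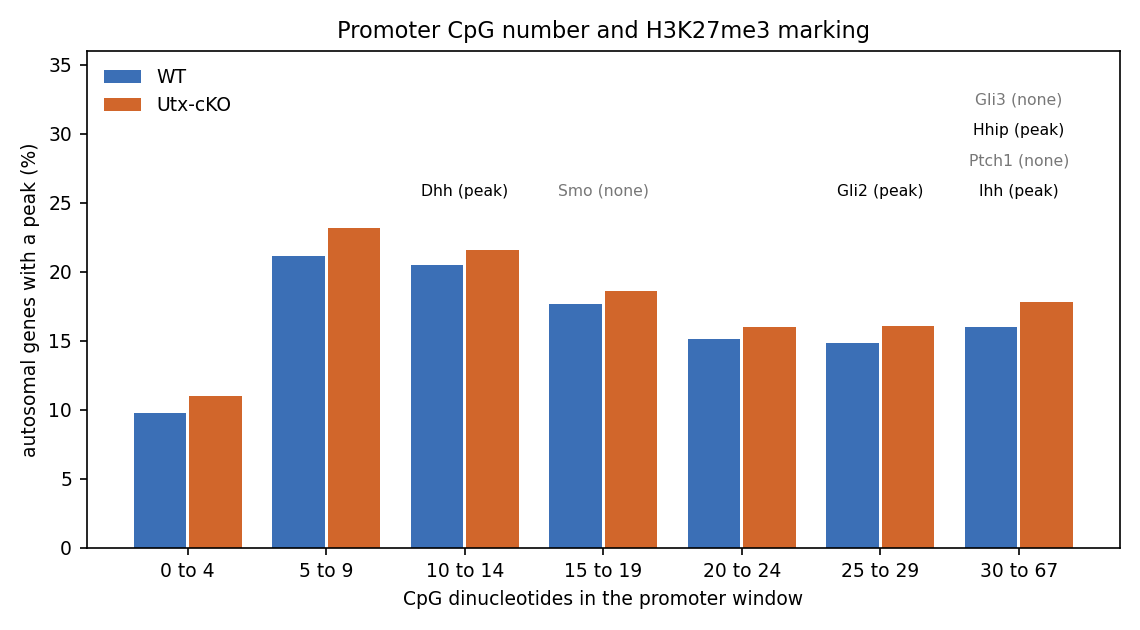
Share of autosomal protein-coding genes with a peak in the gene body or within 2 kb (%), by the number of CpG dinucleotides in their most CpG-rich 300 bp promoter window, in the WT (blue) and Utx-cKO (orange) lists. The names above the bars place the 7 Hedgehog genes with a given start in their CpG class, and marked and unmarked genes share the highest class.

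Coverage was equal or higher in Utx-cKO at every Hedgehog gene marked by the 2 kb rule; with 10 kb, Ptch1 was also marked, over 5.12% in WT and 0.203% in Utx-cKO. The difference was 24.6 percentage points at Shh, 37.2 at Ihh, 7.88 at Dhh, 2.39 at Hhip and 0 at Gli2. Within these windows, all bases covered in WT were covered in Utx-cKO as well. Among 3012 autosomal protein-coding genes with a peak in both lists, coverage was higher in Utx-cKO at 42.6%, lower at 40.6% and equal at 16.8%. Their median difference was 0 points, and that of the 5 Hedgehog genes 7.88, which is the value of Dhh, with lengths not matched. The Dhh value depends on the flank: with 10 kb, Dhh was covered over 19.9% in WT and 20.2% in Utx-cKO. With 10 kb, Shh was covered over 62.0% and 90.9%, Ihh over 85.4% and 99.3%, and Hhip over 24.7% and 26.7%. With 2 kb, a difference at least as large as that of Shh was found at 6.57% of the 3012 genes. It was found at 9.76% of the 1404 with a gene body under 30 kb, as at the 3 ligand genes. Complete coverage, as at Shh and Ihh in Utx-cKO, was seen at 12.4% of marked autosomal genes in WT and 12.8% in Utx-cKO. These shares pool genes of every length, and shares among genes as short as Shh and Ihh were not computed. Values per animal were not analysed here, so the spread of coverage between animals is unknown.

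**Figure D3:**
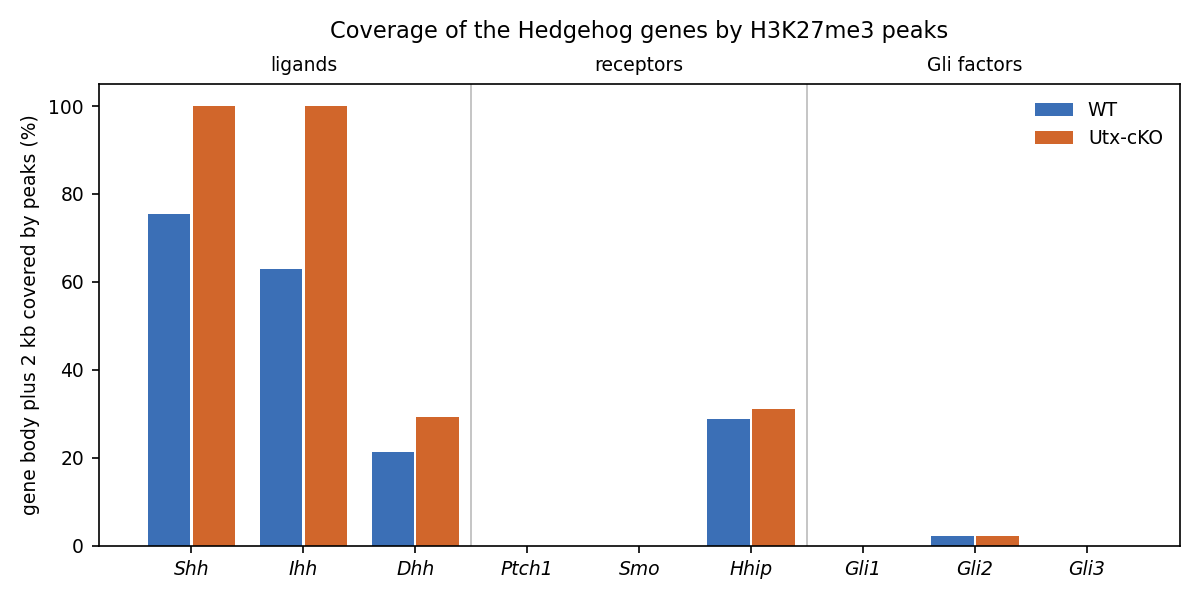
Share of the gene body plus 2 kb covered by H3K27me3 peaks (%, bars from 0) for each Hedgehog gene in the WT (blue) and Utx-cKO (orange) lists, 1 pooled value per genotype. Shh and Ihh reach 100% in Utx-cKO from 75.4% and 62.8% in WT, Gli2 is at 2.18% in both, and genes without bars have no peak.

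Summed over the 9 genes, peaks covered 54.3 of 751 kb (7.23%) in WT and 65.6 kb (8.74%) in Utx-cKO, on 7 and 6 peaks. Over all autosomal protein-coding genes the shares were 5.34% and 5.72%. The 9 genes thus had a share of covered length closer to the background than their share of marked genes, since the long genes Gli2, Gli3 and Ptch1 were nearly or wholly uncovered.

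The peaks at Hedgehog genes ranged from among the narrowest of their lists to wide domains, and apart from the inner Hhip peak they ranked high by mean signal. The mean signal of these others stood between percentiles 80.7 (the wider Ihh peak) and 97.3 (Hhip) in WT, and between 88.9 (Shh) and 96.5 (Ihh) in Utx-cKO. By width they ranged from percentile 1.0 (Gli2) to 85.0 (Ihh) in WT and from 1.10 (Gli2) to 86.9 (Shh) in Utx-cKO. The lowest total signal in a list was 40307 in WT and 35753 in Utx-cKO, so a narrow peak could be listed only with a high mean. The rank of the narrow peaks at Gli2 and Dhh is partly set by that floor. The floor bears less on the wider peak at the start of Hhip. The Shh peaks and the wider Ihh peaks were wider than the median autosomal peak of their list (16800 bp for WT, 15500 bp for Utx-cKO) and stood at percentile 80.7 or higher by mean signal.

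**Figure D4:**
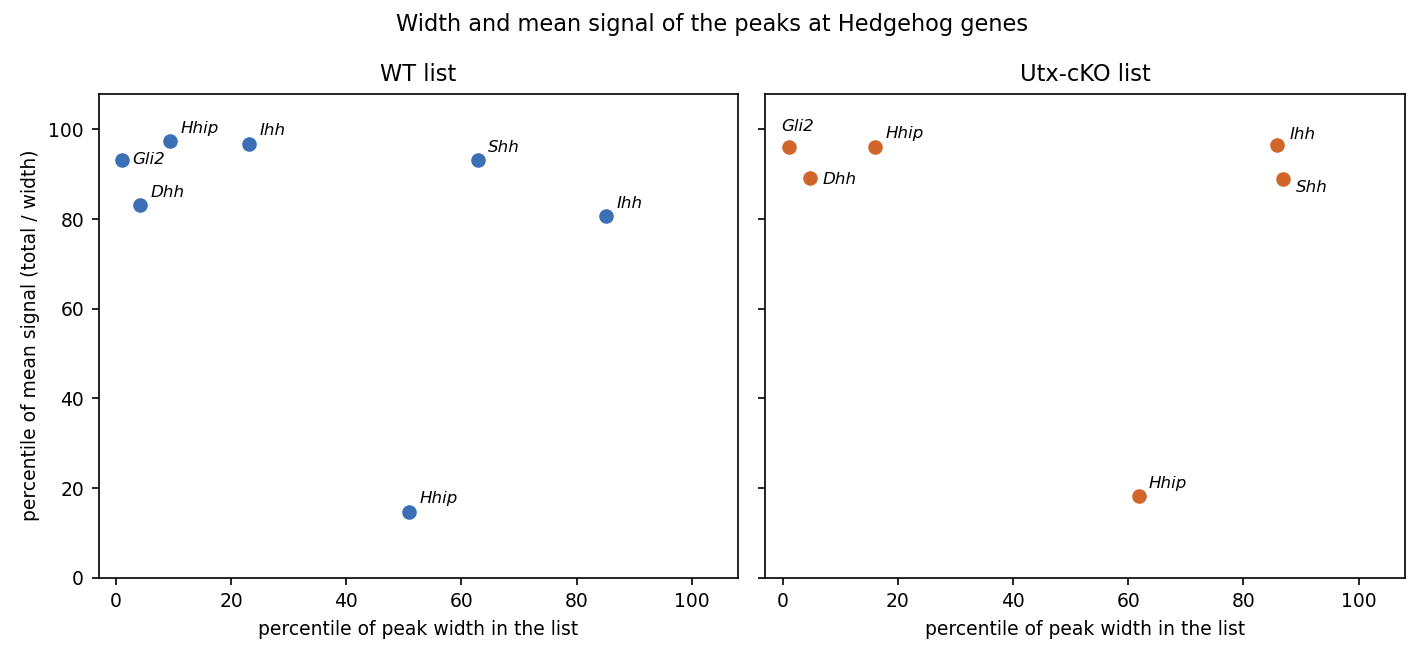
Percentile of mean signal (total signal divided by width) against percentile of width for the 7 WT and 6 Utx-cKO peaks at Hedgehog genes, each ranked within its own list. All but the inner Hhip peak lie above percentile 80 by mean signal.

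The other pathway genes were read against the same background of 16.1% (WT) and 17.6% (Utx-cKO) of autosomal genes, and differences between their groups were not tested. Among 40 further genes, the WT list marked 13, and the Utx-cKO list the same 13 with Disp2 and Sfrp1. Of autosomal genes, 3.0% were marked in Utx-cKO alone, the longer of the lists. Lists of equal length and a common floor of signal were not applied to these 40 genes. None of 14 genes of the cilium and of signal relay was marked in either list, among them Sufu, which restrains Gli factors, and Kif7, a kinesin of the cilium tip. Of 10 genes of ligand release and binding, the WT list marked 3, and the Utx-cKO list the same 3 with Disp2. Scube3, a secreted helper of ligand release, was covered over 33.9% (WT) and 62.3% (Utx-cKO), Scube1 over 25.7% and 22.9%, and Lrp2, an endocytic receptor, over 21.2% and 24.8%.

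Disp2, a relative of the ligand exporter Disp1, had a peak in Utx-cKO (chr2:118779751-118790400) at percentile 16.4. It covered 54.7% of the gene body plus 2 kb and overlapped no WT peak.

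Of 16 genes known as Hedgehog targets in some tissue, the WT list marked 10, and the Utx-cKO list the same 10 and Sfrp1. Foxf2, Foxl1 and Hand2, transcription factors of mesenchyme, were covered over 100% in both lists. Foxa2, a factor of floor plate and endoderm, was covered over 77.8% in WT and 100% in Utx-cKO. Coverage was also higher in Utx-cKO at Foxf1 (63.8% and 71.0%). It was lower in Utx-cKO at Foxe1 (100% and 73.1%) and Nkx2-2 (79.9% and 75.5%). The other targets marked in both lists had equal coverage. Sfrp1, a Wnt antagonist, was marked in Utx-cKO alone, over 5.01% of its length, by a peak at percentile 2.01. Bmp4, Ccnd1, Ccnd2, Bcl2 and Cdk6, among them growth and survival targets, were marked in neither list. Mycn, also a growth target, was marked in both lists, over 17.3% of the gene body plus 2 kb in each.

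Counted by the same rule, each list marked 2 of 9 Notch receptors and ligands. These were Dll4, a ligand, covered over 85.1% in WT and 43.3% in Utx-cKO, and Notch4, a receptor, over 52.6% and 29.1%. Of 19 Wnt ligands, the WT list marked 8 and the Utx-cKO list the same 8 with Wnt5a and Wnt11. Of autosomal genes, 3.0% were marked in Utx-cKO alone. The Utx-cKO peaks at Wnt5a and Wnt11 covered 8.02% and 8.10% and stood at percentiles 5.23 and 15.9 by total signal. The Wnt11 peak lay in the flank only, ending at 98835000, below the gene's lower border at 98835084. Wnt8b was covered over 91.3% in WT and 100% in Utx-cKO, Wnt16 over 81.4% and 93.6%, and Wnt9b over 42.8% and 44.8%. Wnt1, which lies near Dhh on chromosome 15, was covered over 38.0% and 74.99%. Coverage was lower in Utx-cKO at Wnt2 (26.7% and 23.9%) and Wnt3 (18.0% and 2.98%). It was higher in Utx-cKO at the other Wnt ligands marked in both lists. The differences between these families and the Hedgehog genes were not tested.

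**Figure D5:**
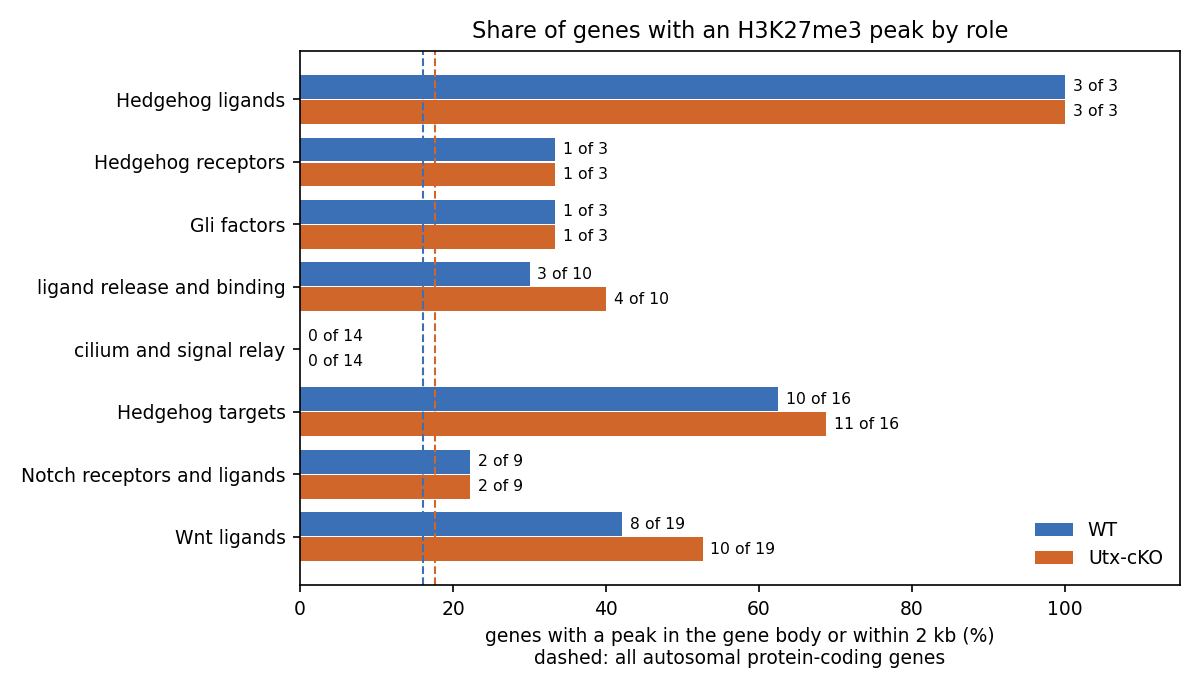
Share of genes with an H3K27me3 peak in the gene body or within 2 kb (%), by role, in the WT (blue) and Utx-cKO (orange) lists, with the number marked of the number in each group. Dashed lines give the share of all autosomal protein-coding genes, 16.1% in WT and 17.6% in Utx-cKO, and the groups range from 0 of 14 (cilium and signal relay) to 3 of 3 (ligands).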

How the data were processed

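The authors deposited 2 peak lists, 1 per genotype, which per the file headers are SEACR calls (spelled SECAR) on data merged from all samples of a group. The lists have no column names, and the usual SEACR order was assumed. The deposited score of a peak is its total signal (coverage summed over the peak) and its maximum signal. Scale, normalization, SEACR mode, control and threshold are not given in the sources consulted, so scores were ranked within a list. The tools in the submitters' processing notes are deepTools, bedtools 2.27.1, SAMtools 1.9 and Bowtie2 2.3.4.3, and the builds mm10, GRCm38 and sacCer3. Depth is unknown, and IgG libraries were not analysed here.

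Genes came from RefSeq's table for GRCm38.p6, and all 95 listed genes used matched. Starts and promoter sequences were in a second RefSeq table for 7 of the 9 Hedgehog genes. Peak borders lay on a 50 bp grid. Overlap was computed with Python 3.11.15, pandas 2.3.3 and NumPy 2.4.6 and tested on simulated data. A percentile is the rank of a peak among all peaks of its list, those on the X chromosome included. Of the 7826 WT and 8914 Utx-cKO peaks, 6126 and 7033 were autosomal. Ranks among autosomal peaks alone were not computed.

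The members and gene lists were chosen with earlier results of these data known. Named genes were the 9 members and, from each other list, up to 4 marked in a single list and up to 4 marked in both, most covered first by the mean of both lists. Unmarked genes of these lists, Mycn and the cell type markers were named outside that rule, after their values were seen. A listed gene is not reported here.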

Additional observations from a re-analysis of the deposited data

How the results depend on the processing

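The marked Hedgehog genes were the same 5 in both lists with no flank, with a peak required within 2 kb of the start (either gene end for Shh and Gli1, whose starts were not given), with the lists cut to 7826 peaks each, and at a common floor of total signal, which was chosen after seeing the data. With a flank of 10 kb, Ptch1 joined in both lists, which made 6, on different peaks that covered 5.12% in WT and 0.203% in Utx-cKO, the reverse of the direction at the genes marked with 2 kb. Requiring 50% coverage left 2 genes in WT, 2 in Utx-cKO and 2 in both (Shh and Ihh). Peaks of at least 10 kb left 3, 3 and 3 (Shh, Ihh and Hhip). The top 50% of each list left 3 in WT, 4 in Utx-cKO, where Dhh stayed, and 3 in both, without Gli2. These losses follow from the small share covered at Dhh, Hhip and Gli2, and from the width and rank of the Dhh and Gli2 peaks. The covered share of the 9 genes was 6.52% in WT and 7.78% in Utx-cKO without a flank, 9.56% and 10.7% with 10 kb, 3.57% and 5.50% with the top 50%, and 4.71% and 7.27% with peaks of at least 10 kb. It was higher in Utx-cKO under each of these settings. Equal numbers of peaks and the common floor cannot change the WT list, since they are its own length and lowest total signal. Nor could they remove a Utx-cKO peak at these genes. The lowest of those, the inner Hhip peak, had a total signal of 59410 (percentile 44.2), above the floor of 40307. These 2 settings were therefore no check on the marked genes. No paired analysis was made: the labels give no pairing of animals between genotypes, and each list pools its animals.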
